A study of Mus musculus with 8 samples.

Results

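The miR-99/100 and miR-125 families were followed here through 10 mature miRNAs, chosen by name. All were among the 697 mouse miRNAs of the series, and each of the 10 was counted in every library. In mammals, genes of the miR-99/100 family, the let-7 family and the miR-125 family lie together in paralogous clusters, in the introns of longer host transcripts. A miRNA directs Argonaute to messenger RNAs through its seed, the bases just behind its 5′ end, so paralogs that share a seed share most of their predicted targets. The miR-125 family is the vertebrate kin of the worm lin-4 gene, miR-99 and miR-100 are known to repress Mtor, and let-7 and miR-125 both repress Lin28.

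The libraries are small RNA sequencing of cardiomyocytes isolated by Langendorff perfusion from hearts of male mice that were 2 months old at surgery. The 4 TAC mice had undergone transverse aortic constriction, which narrows the aorta and loads the left ventricle with pressure, and the 4 Sham mice had undergone sham surgery. Cells were taken 14 weeks after surgery, and each library came from a portion of the myocytes of a single heart. No transgene or deletion is named for either group, and the strain was not given in the sources used here. The miRNA counts summed to between 4005668 and 5392576 per library in Sham and between 5507169 and 7798943 in TAC.

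The mature sequences are shown because the results compare paralogs that differ by few bases, and tags must be told apart by those bases. They are RefSeq's (GRCm38.p6), 5′ to 3′, with the seed (bases 2 to 8) in capitals. The miR-99/100 5p arms share the seed ACCCGUA:
mmu-miR-99a-5p: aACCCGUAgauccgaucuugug
mmu-miR-100-5p: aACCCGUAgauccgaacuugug
mmu-miR-99b-5p: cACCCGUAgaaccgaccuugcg

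Counted from 1 at the 5′ end and read from miR-99a-5p, miR-100-5p carries the single change U16A, and miR-99b-5p carries the 4 changes A1C, U11A, U16C and U21C. The miR-125 5p arms share the seed CCCUGAG and the first 13 bases:
mmu-miR-125b-5p: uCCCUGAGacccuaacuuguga
mmu-miR-125a-5p: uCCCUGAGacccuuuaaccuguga

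The 3p arms come from the opposite side of each hairpin. Those of miR-99a and miR-99b share the seed AAGCUCG, and the miR-125 3p arms each have a seed of their own:
mmu-miR-99a-3p: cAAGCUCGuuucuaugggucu
mmu-miR-99b-3p: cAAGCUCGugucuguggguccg
mmu-miR-125a-3p: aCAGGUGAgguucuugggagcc
mmu-miR-125b-1-3p: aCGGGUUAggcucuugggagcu
mmu-miR-125b-2-3p: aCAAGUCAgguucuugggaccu

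Mature miR-125b-5p is the same from its hairpins on chromosomes 16 and 9, so its counts cannot be divided between them. The 3p arms of those hairpins differ by A3G, A4G, C7U, U11C and C20G, read from miR-125b-2-3p to miR-125b-1-3p, and mark the copies apart. The let-7 members of the clusters share the seed GAGGUAG and differ at position 9 or 19 (U9G from let-7a-5p to let-7e-5p, G19A from let-7c-5p to let-7a-5p). let-7a-5p and let-7c-5p also come from let-7 hairpins outside these clusters, whereas let-7e-5p marks its own cluster:
let-7c-5p: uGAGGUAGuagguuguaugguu
let-7e-5p: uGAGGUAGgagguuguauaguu
let-7a-5p: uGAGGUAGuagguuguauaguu

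All 9 hairpins lie on the plus strand of GRCm38 (GENCODE vM21). On chromosome 16, Mir99a (chr16:77598936-77599000), Mirlet7c-1 (chr16:77599657-77599750) and Mir125b-2 (chr16:77646273-77646343) lie in introns of the noncoding host Mir99ahg. On chromosome 17, Mir99b (chr17:17830188-17830257), Mirlet7e (chr17:17830352-17830444) and Mir125a (chr17:17830812-17830879) lie in introns of Spaca6, and Mir125a partly overlaps an exon of 1 Spaca6 transcript. On chromosome 9, Mir100 (chr9:41531425-41531504), Mirlet7a-2 (chr9:41536716-41536811) and Mir125b-1 (chr9:41581926-41582002) lie in introns of the noncoding host 3110039I08Rik. There Mir125b-1 also lies whole in an exon of Gm28119 on the same strand, and Mir100 whole in an exon of Gm48742 on the opposite strand. The chromosome 17 cluster is the compact one, with the miR-125 hairpin starting 624 bases after the miR-99/100 hairpin. The same distance is 47337 bases on chromosome 16 and 50501 bases on chromosome 9.

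The members were abundant. Together they made up 12.0% ± 1.15 of all miRNA counts in Sham and 11.7% ± 0.828 in TAC, where errors here and below are SDs over the 4 libraries of a group. miR-99a-5p ranked 4 by total count among the 697 miRNAs, miR-125b-5p 8, miR-125a-5p 21, miR-100-5p 33 and miR-99b-5p 36. All the 3p arms lay far below, from rank 94 for miR-125b-2-3p to rank 343 for miR-99b-3p. Levels are given as CPM, the counts scaled to a total of 1000000 miRNA counts in each library, which needs no length correction because each mature miRNA gives 1 tag.

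**Figure D1:**
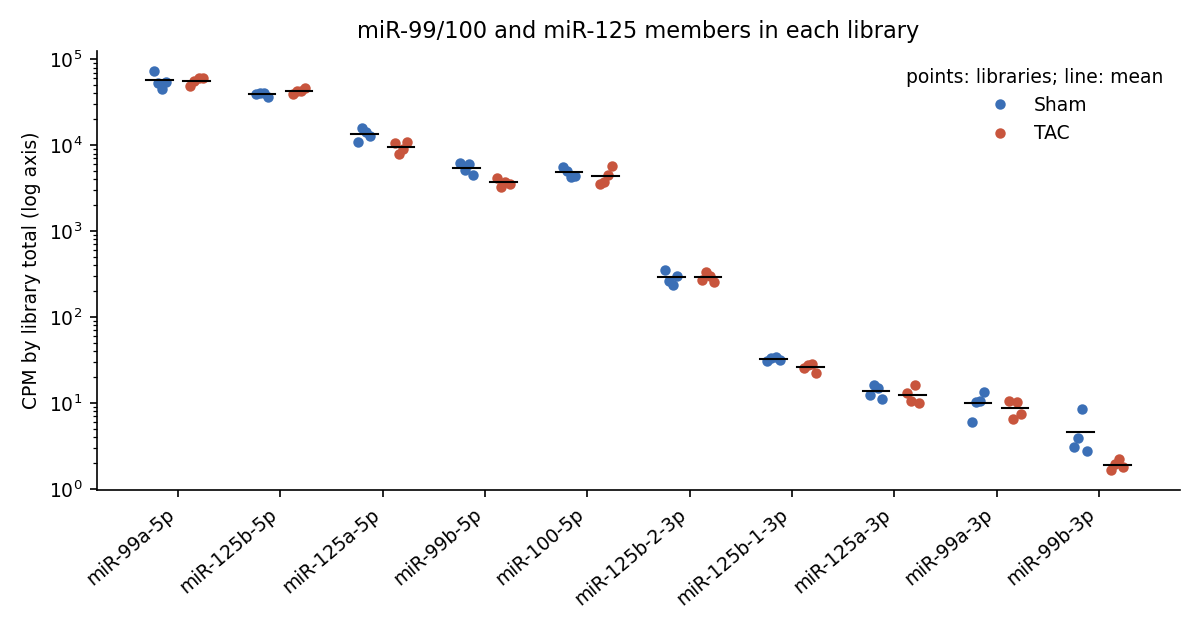
CPM by library total (log axis) of the 10 members in the 4 Sham and 4 TAC libraries; points are libraries and the short black lines are group means. The 5 abundant 5p arms lie between 3290 and 73567 CPM, and every 3p arm lies at or below 356.5 CPM.

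miR-99a-5p stood at 73567, 53227, 45303 and 54676 CPM in Sham libraries 1 to 4 and at 48757, 55233, 59925 and 59973 CPM in TAC libraries 1 to 4. Sham 1 was the highest of the 8, Sham 3 was the lowest, and Sham 2 and Sham 4 lay among the TAC values. miR-125b-5p was steadier, at 39653, 40870, 40700 and 36274 CPM in Sham and at 39732, 42894, 42216 and 46181 CPM in TAC. Its SD of log2 CPM was 0.080 in Sham and 0.089 in TAC, against medians of 0.25 and 0.22 over the 223 miRNAs that were tested. The corresponding SDs of miR-99a-5p were 0.29 and 0.14.

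The chromosome 17 paralogs were lower, and lower in TAC than in Sham by this scale. miR-125a-5p stood at 10907, 15952, 14373 and 12919 CPM in Sham and at 10627, 7962, 9132 and 10751 CPM in TAC. miR-99b-5p stood at 6280, 5142, 5959 and 4502 CPM in Sham and at 4181, 3290, 3714 and 3529 CPM in TAC. For both, the highest TAC value was below the lowest Sham value, as it was for 27.4% of the 223 tested miRNAs. For miR-125a-5p only a narrow gap, between TAC 4 and Sham 1, parted the groups. miR-100-5p, the chromosome 9 paralog, stood at 5611, 5023, 4259 and 4407 CPM in Sham and at 3554, 3760, 4518 and 5710 CPM in TAC, where TAC 4 exceeded all Sham libraries and the groups overlapped.

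The order of levels was the same in all 8 libraries from miR-99a-5p through miR-125b-5p to miR-125a-5p, and miR-125a-5p exceeded miR-99b-5p in all 8. miR-99b-5p and miR-100-5p could not be ordered beyond their spread: miR-99b-5p was the higher in 5 of 8 libraries, which were the 4 Sham libraries and TAC 1. Below them, miR-125b-2-3p averaged 289 ± 51.0 CPM in Sham and 288 ± 33.5 in TAC. miR-125b-1-3p averaged 32.5 ± 1.59 and 26.0 ± 2.71 CPM. The arms miR-125a-3p (13.6 ± 2.23 and 12.4 ± 2.80 CPM), miR-99a-3p (10.03 ± 3.05 and 8.67 ± 2.02) and miR-99b-3p (4.56 ± 2.71 and 1.89 ± 0.242) rested on few counts, between 9 and 102 per library. miR-125a-3p exceeded miR-99a-3p in 7 of 8 libraries, and miR-99b-3p was the lowest of the 10 in all 8.

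The 5p arm far exceeded the 3p arm for miR-99a, miR-99b, miR-125a and miR-125b, the last taken over both of its hairpins. miR-99a-5p had 6448 ± 3840 counts per count of miR-99a-3p in Sham and 6774 ± 1845 in TAC. The ratio of arms was 1433 ± 581 and 1978 ± 407 for miR-99b, and 997 ± 112 and 804 ± 211 for miR-125a. miR-125b-5p, set against the sum of its 3p arms, had the smallest excess, at 124.9 ± 22.1 in Sham and 138 ± 20.8 in TAC. The Sham 1 value of miR-99a was 12160, against 4056 to 5219 in the other Sham libraries.

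Within the miR-99/100 seed group, the chromosome 16 copy led. miR-99a-5p made up 84.4% ± 2.11 of the miR-99/100 5p counts in Sham and 87.4% ± 1.11 in TAC. miR-99b-5p held 8.32% ± 1.67 of that pool in Sham and 5.81% ± 1.07 in TAC, and miR-100-5p held 7.27% ± 0.632 and 6.80% ± 0.995. Of the miR-125 5p counts, miR-125a-5p held 25.5% ± 2.77 in Sham and 18.4% ± 2.27 in TAC, and miR-125b-5p, from chromosomes 16 and 9 together, the rest. The pools themselves were close in size: the miR-125 pool was 5.29% ± 0.362 of the library in Sham and 5.24% ± 0.307 in TAC, and the miR-99/100 pool 6.70% ± 1.29 and 6.40% ± 0.588.

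Of the hairpins that both give miR-125b-5p, the chromosome 16 copy had the more abundant 3p arm. miR-125b-2-3p made up 89.7% ± 1.98 of the miR-125b 3p counts in Sham and 91.7% ± 0.461 in TAC, with 8.949 ± 1.9998 and 11.1 ± 0.686 counts per count of miR-125b-1-3p. The other pair from chromosomes 16 and 9 stood in a similar ratio, with 11.7 ± 1.27 counts of miR-99a-5p per count of miR-100-5p in Sham and 13.04 ± 1.79 in TAC. A ratio of 3p arms also carries how long each arm lasts and how well each sequence is cloned, so it does not give the share of miR-125b-5p that comes from each copy.

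The comparison of TAC with Sham depended on how the libraries were scaled. The study normalized to miR-126a-3p, an endothelial miRNA, and miR-19b-3p, of the miR-17~92 cluster. It describes both as unaltered, which it reports to have verified by qPCR. With that reference, TAC library sizes were multiplied by 0.537, which raises every log2 fold change by about 0.90 over the library totals. The median log2 fold change over the 223 tested miRNAs, those that averaged more than 100 counts per library, was 0.61 with reference scaling, -0.082 with TMM, which assumes that most miRNAs do not change, and -0.29 with library totals. For the 7 members past that mean the medians were 0.76, 0.068 and -0.14. In bulk RNA, fewer cells of a type and less RNA per cell cannot be told apart.

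With reference scaling, 3 of the 7 tested members were called higher in TAC by edgeR (adjusted p below 0.05 and fold change above 1.7), against 36.8% of the 223 miRNAs. They were miR-125b-5p, at log2 1.02 (SE 0.089, adjusted p = 4.1e-05), miR-125b-2-3p, at log2 0.89 (SE 0.16, adjusted p = 0.0014), and miR-99a-5p, at log2 0.88 (SE 0.15, adjusted p = 0.0010). All of them are made wholly or partly on chromosome 16. By adjusted p alone 6 of 7 rose, against 63.7% of all tested. miR-100-5p rose by log2 0.76 (adjusted p = 0.0033), just under the fold threshold of log2 0.77, and miR-125b-1-3p by 0.57 (adjusted p = 0.013). The chromosome 17 members had the smallest values, log2 0.40 for miR-125a-5p (SE 0.14, adjusted p = 0.033) and 0.32 for miR-99b-5p (SE 0.13, adjusted p = 0.055). The reference factor was a single value for all TAC libraries, computed from these libraries and taken as known in the fit. The edgeR SEs and adjusted p with that factor, here and below, therefore leave out its own spread. With a factor for each library, the 3 called members were still called. Their edgeR adjusted p were 0.0016 for miR-125b-5p (log2 0.98), 0.027 for miR-99a-5p (log2 0.79) and 0.031 for miR-125b-2-3p (log2 0.82).

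Leaving out single libraries moved these edgeR calls. Without Sham 3, only miR-125b-5p was still called, since miR-99a-5p (log2 0.70) and miR-125b-2-3p (log2 0.73) came under the fold threshold. Without Sham 1, TAC 1 or TAC 2, miR-100-5p was called as well, at log2 0.96, 0.85 and 0.79. miR-99b-5p passed the adjusted p without Sham 1 (0.0078) or TAC 4 (0.042), and with miR-19b-3p as the only reference (edgeR adjusted p = 0.016). miR-125a-5p no longer passed without Sham 3 (0.11), Sham 4 (0.052), TAC 1 (0.082) or TAC 3 (0.061), nor did miR-125b-1-3p without Sham 3 (0.056) or TAC 2 (0.054). Within reference scaling, miR-125a-5p also missed with a factor for each library (edgeR adjusted p = 0.052), with miR-126a-3p alone (0.10) and with no filter (0.055), and miR-125b-1-3p missed with a factor for each library (0.075) and with no filter (0.056).

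Reference-scaled CPM of miR-125b-5p was 74014, 79905, 78642 and 86028 in TAC libraries 1 to 4, each above the highest Sham value of 40870. The lowest TAC value exceeded the highest Sham value for 5 of the 7 tested members, against 54.7% of all tested miRNAs, and miR-99b-5p and miR-125a-5p were the members whose groups overlapped. When the reference factor was computed anew in each of the 70 arrangements of the libraries, the two-sided exact permutation p was 0.0286, the smallest possible, for miR-125b-5p and miR-125a-5p. It was 0.0571 for miR-99a-5p, miR-125b-1-3p and miR-125b-2-3p, 0.0857 for miR-100-5p and 0.229 for miR-99b-5p in the same exact test.

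**Figure D2:**
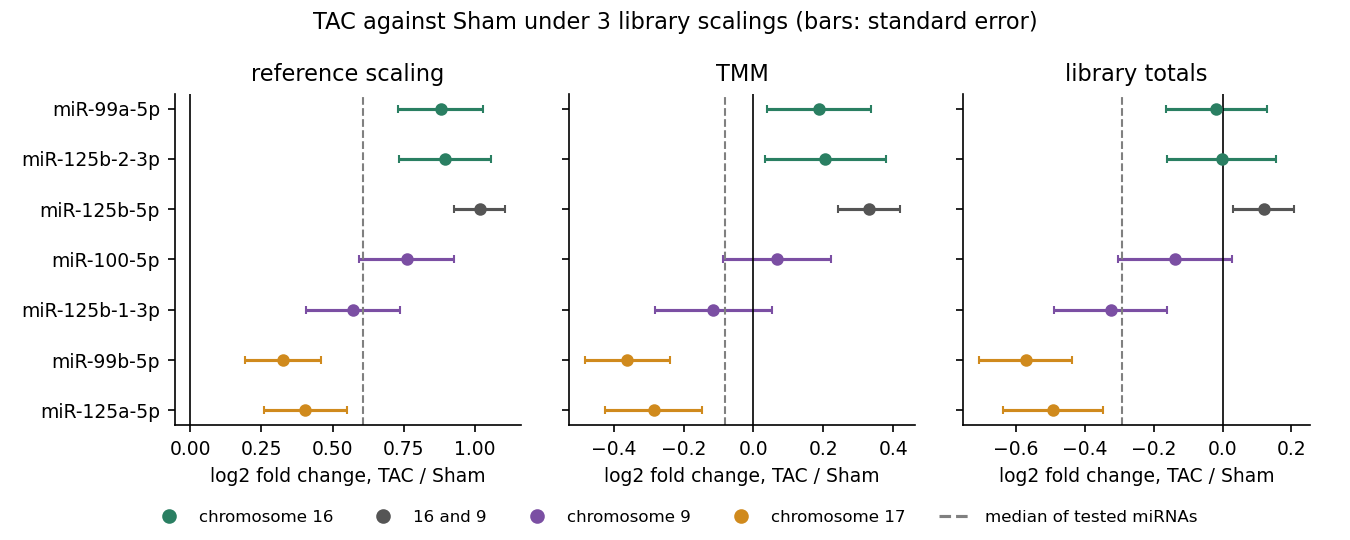
Log2 fold change of TAC over Sham (x axis, edgeR, bars are standard errors) for the 7 tested members under the 3 scalings; colours mark the chromosome of origin and the dashed line is the median of the 223 tested miRNAs. The members keep their order while the zero line moves: miR-99b-5p lies at 0.32, -0.36 and -0.57, left of the dashed line each time, and miR-125b-5p at 1.02, 0.33 and 0.12, right of it each time.

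With TMM, miR-125b-5p was the only member of 7 to rise, by log2 0.33 (edgeR adjusted p = 0.033), against 4.93% of all tested miRNAs, and this call was lost in 6 of the 8 fits that left out a library, being kept only without Sham 1 or TAC 1 (adjusted p from 0.033 to 0.11). None of the 7 fell, against 8.52% of all tested, and DESeq2 with its own size factors also gave 0. At an unadjusted p under 0.05 there was 1 of 7 in edgeR, near the 17.5% of all tested miRNAs at that threshold. It was miR-99b-5p, at log2 -0.36 (edgeR adjusted p = 0.079), and miR-125a-5p had log2 -0.29 (adjusted p = 0.19). With library totals 2 of 7 fell, against 20.6% of all tested. They were miR-99b-5p, by log2 -0.57 (edgeR adjusted p = 0.015), and miR-125a-5p, by log2 -0.49 (adjusted p = 0.039), while miR-99a-5p (log2 -0.018) and miR-125b-2-3p (log2 -0.0031) were level.

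On the scale of library totals, the highest TAC value was under the lowest Sham value for 3 of the 7 tested members, against 27.4% of all tested miRNAs. They were miR-99b-5p, miR-125a-5p and miR-125b-1-3p, and the rarely counted miR-99b-3p did the same (two-sided exact permutation p = 0.0286 each, the smallest possible). The chromosome 17 members together made up 1.72%, 2.11%, 2.04% and 1.74% of the library in Sham and 1.48%, 1.13%, 1.29% and 1.43% in TAC. The members made only on chromosome 16 averaged 5.70% ± 1.20 in Sham and 5.63% ± 0.530 in TAC, and those made only on chromosome 9 averaged 0.486% ± 0.0619 and 0.441% ± 0.0973, with overlapping groups in both cases. Of these 3 sets, the chromosome 17 set was the one whose groups did not overlap. That follows from miR-99b-5p and miR-125a-5p, which make up nearly all of the set and were each below Sham in every TAC library. It is not a further result, and no background over summed sets was computed.

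The 3 members under the mean of 100 counts were tested with a mean minimum of 10. With reference scaling miR-125a-3p had log2 0.75 (edgeR adjusted p = 0.027), miR-99a-3p log2 0.68 (adjusted p = 0.085) and miR-99b-3p log2 -0.37 (adjusted p = 0.47). With TMM in the same edgeR fit, a setting chosen after seeing the data, miR-125a-3p had log2 0.16 (adjusted p = 0.71), miR-99a-3p 0.075 (adjusted p = 0.91) and miR-99b-3p -0.93 (adjusted p = 0.16). By TMM, miR-99b-3p was lower in every TAC library than in any Sham library (exact permutation p = 0.0286). With reference scaling its groups overlapped (exact permutation p = 0.6). The share of all miRNAs whose groups part under TMM was not computed, so the TMM result has no background beside it.

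Ratios of paralogs within a library do not depend on the scaling. Those that hold miR-125b-5p, let-7a-5p or let-7c-5p compare the clusters only in part, because each of these is made from several hairpins. miR-125b-5p had 3.64, 2.56, 2.83 and 2.81 counts per count of miR-125a-5p in Sham libraries 1 to 4 and 3.74, 5.39, 4.62 and 4.30 in TAC libraries 1 to 4. The groups did not overlap, with TAC 1 just above Sham 1, and the mean ratio was higher by log2 0.61 in TAC (two-sided exact permutation p = 0.0286). Adjusted over the 16 ratios compared, the exact p was 0.286. The difference was log2 0.71 without Sham 1, with the same exact p of 0.0286. It lay between 0.52 and 0.69 when any other single library was left out, each time with an exact p of 0.0571 before adjustment.

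miR-99a-5p had 11.7, 10.4, 7.60 and 12.1 counts per count of miR-99b-5p in Sham and 11.7, 16.8, 16.1 and 16.995 in TAC. TAC 1 lay within the Sham range and the other TAC libraries lay above it. The ratio was higher by log2 0.57 in TAC (two-sided exact permutation p = 0.0857, adjusted p = 0.286), with TAC 1 included. Leaving out TAC 1 gave log2 0.69 (exact p = 0.0286 before adjustment), and leaving out any other single library gave between 0.42, without Sham 3, and 0.65, with an exact p of 0.0857 to 0.143.

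Several ratios between clusters share a member, so their signs are not all independent. In log2, miR-99a-5p to miR-99b-5p is the sum of miR-99a-5p to miR-100-5p and miR-100-5p to miR-99b-5p. Both let-7 ratios are taken to let-7e-5p. The other ratios between clusters were also positive, with overlapping groups. They were log2 0.41 for miR-100-5p to miR-99b-5p (exact p = 0.114), 0.36 for let-7c-5p to let-7e-5p (exact p = 0.114), 0.30 for let-7a-5p to let-7e-5p (exact p = 0.229), 0.34 for miR-125b-2-3p to miR-125b-1-3p (exact p = 0.114) and 0.15 for miR-99a-5p to miR-100-5p (exact p = 0.257). Single libraries moved several of them: miR-100-5p to miR-99b-5p lay between 0.26 without TAC 4 and 0.57 without TAC 1, let-7a-5p to let-7e-5p between 0.18 without Sham 2 and 0.43 without Sham 1, and miR-99a-5p to miR-100-5p between 0.093 without TAC 2 and 0.25 without TAC 4. let-7c-5p to let-7e-5p lay between 0.25 without Sham 2 and 0.50 without Sham 1, and miR-125b-2-3p to miR-125b-1-3p between 0.23 without Sham 3 and 0.47 without Sham 1. The exact p before adjustment was 0.0286 at the upper end for miR-100-5p to miR-99b-5p, let-7c-5p to let-7e-5p and miR-125b-2-3p to miR-125b-1-3p. In all, 1 of 16 ratios, between and within clusters, had groups that did not overlap, against 21.7% of the 24753 pairs of tested miRNAs, and none of the 16 passed an adjusted p of 0.05 in the exact test, where the values ran from 0.286 to 0.971. With a smallest exact p of 0.0286, no single ratio could have passed that adjustment, so its outcome says nothing for or against a difference between the clusters.

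**Figure D3:**
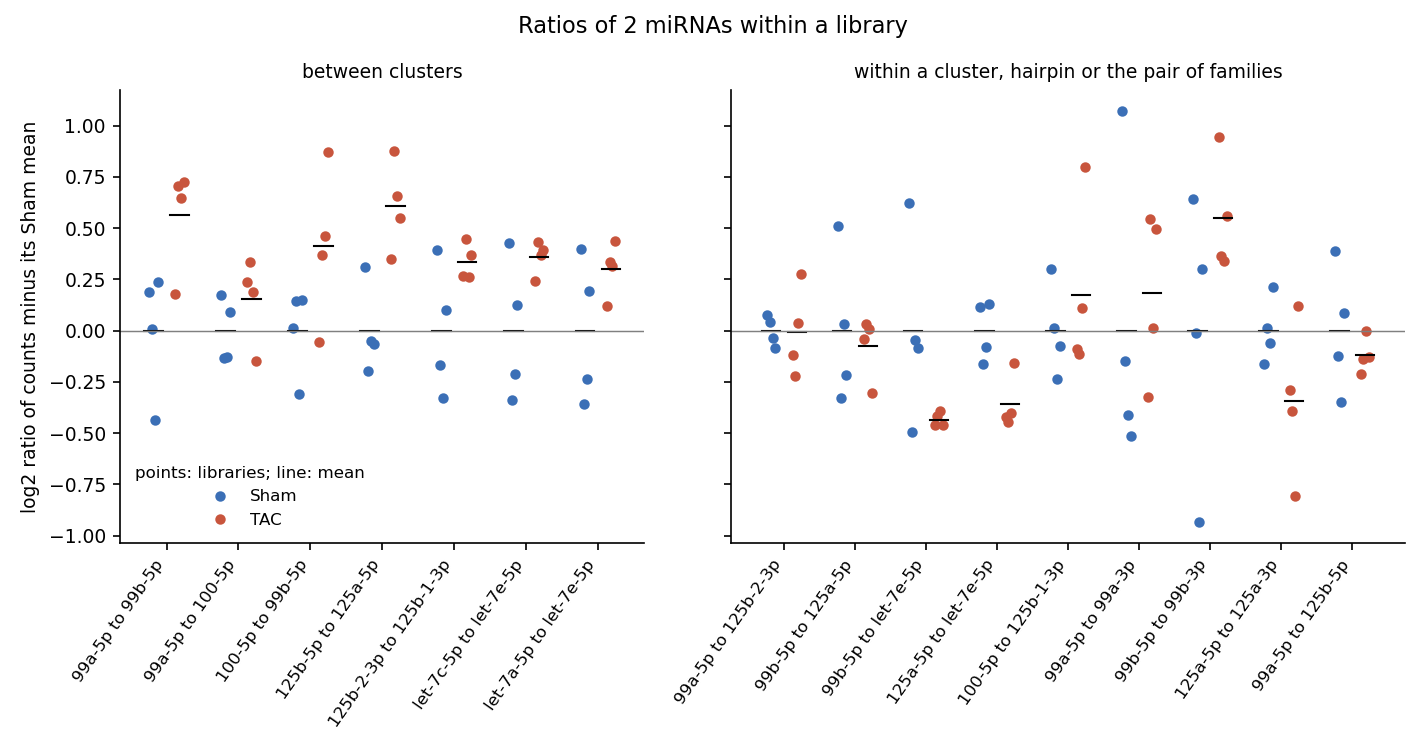
Log2 ratio of the counts of 2 miRNAs in the same library, minus its Sham mean, for the 7 ratios between clusters (left) and the 9 ratios within a cluster, a hairpin or between the families (right); points are libraries and lines are group means. Only miR-125b-5p to miR-125a-5p has all TAC points above all Sham points, and miR-99a-5p to miR-125b-2-3p has group means that differ by only log2 -0.0065.

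Within the chromosome 16 cluster, miR-99a-5p and miR-125b-2-3p kept a steady ratio. It was 206, 201, 190 and 184 in Sham and 180, 167, 200 and 237 in TAC, a difference of log2 -0.0065 (exact permutation p = 0.971). The SD of this log2 ratio over the 8 libraries was 0.15, against a median of 0.46 over all 24753 pairs of tested miRNAs, and 0.953% of pairs had a smaller one. The partner is also the 4th most alike of 222 miRNAs to miR-99a-5p, by that SD.

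The pairs of the other clusters had larger SDs over all 8 libraries. miR-99b-5p to miR-125a-5p had an SD of 0.27 (11.2% of pairs smaller), with counts of 0.576 per count of miR-125a-5p in Sham 1 against 0.322 to 0.415 in the other 7 libraries, and a difference of log2 -0.076 (exact p = 0.743). miR-100-5p to miR-125b-1-3p had an SD of 0.33 (22.5% of pairs smaller), with TAC 4 highest at 256 and the other 7 libraries between 125.1 and 182. Its difference was log2 0.18 (exact p = 0.600). These larger SDs were each raised most by a single library, as seen when each library was left out in turn, which was done after seeing the data. Without Sham 1 the SD of miR-99b-5p to miR-125a-5p was 0.160, against 0.158 for miR-99a-5p to miR-125b-2-3p over the same libraries. Without TAC 4 the SD of miR-100-5p to miR-125b-1-3p was 0.175, still above the 0.107 of the chromosome 16 pair. miR-125b-1-3p had 126 to 215 counts per library and miR-125b-2-3p 1168 to 2572, so counting error weighs more on the chromosome 9 pair. The chromosome 16 pair had the smallest of the 3 SDs whichever library was left out, by a margin that nearly vanished without Sham 1, and the difference between the SDs was not tested.

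let-7e-5p, the let-7 of chromosome 17, averaged 1075 ± 272 CPM in Sham and 962 ± 111 in TAC, and its log2 fold change with reference scaling was 0.74 (edgeR adjusted p = 0.0070), above both neighbours in its cluster. Its ratios to them had overlapping groups: miR-125a-5p to let-7e-5p differed by log2 -0.36 (exact p = 0.0571) and miR-99b-5p to let-7e-5p by log2 -0.43 (exact p = 0.143). The latter was log2 -0.23 without Sham 1 (exact p = 0.171) and -0.60 without Sham 2 (exact p = 0.0286 before adjustment), and the former -0.42 without TAC 4 (exact p = 0.0286 before adjustment). let-7c-5p and let-7a-5p had log2 1.12 and 1.07 with reference scaling (edgeR adjusted p = 3.8e-05 each), and 0.44 and 0.38 with TMM (edgeR adjusted p = 0.019 and 0.026). The arms let-7c-1-3p (12.5 ± 1.95 CPM in Sham, 17.3 ± 4.48 in TAC) and let-7e-3p (3.92 ± 0.353 and 1.37 ± 0.487) were rare. let-7a-2-3p had 0 counts in Sham 1 and Sham 4, which allow up to 0.648 and 0.749 CPM by counting error alone, and at most 10 counts elsewhere.

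The remaining ratios within hairpins and between families had overlapping groups as well. The 5p to 3p ratio differed by log2 0.54 for miR-99b (exact p = 0.200), by -0.34 for miR-125a (exact p = 0.143) and by 0.19 for miR-99a (exact p = 0.686). These values turned on single libraries, being between log2 0.23 (without Sham 3) and 0.75 (without Sham 1, exact p = 0.0286 before adjustment) for miR-99b, between -0.18 (without TAC 3) and -0.49 (without TAC 4, exact p = 0.0286 before adjustment) for miR-125a, and between 0.018 (without Sham 4) and 0.54 (without Sham 1) for miR-99a. miR-99a-5p to miR-125b-5p differed by log2 -0.12 (exact p = 0.514).

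For 4 of the 5 abundant members (miR-100-5p was not analysed in this way), the most alike miRNAs, by the smallest SD of the log2 ratio of counts over the 8 libraries, are named next. For miR-99a-5p they were let-7d-5p (SD 0.11), miR-191-5p (0.14) and miR-148a-5p (0.14), with a median of 0.41 over all 222 others. For miR-125b-5p they were let-7a-5p (0.10), miR-145a-3p (0.10) and let-7c-5p (0.12), with a median of 0.37. For miR-99b-5p they were miR-342-3p (0.10), miR-497a-5p (0.17) and miR-29a-3p (0.19), with a median of 0.38. For miR-125a-5p they were miR-181a-5p (0.13), miR-145a-5p (0.15) and miR-199a-5p (0.18), with a median of 0.39. No miRNA was among the 3 most alike to more than 1 of these 4 members, within a cluster or between clusters. With only 3 of 222 named for each member, this lack of overlap says nothing of the clusters. All these miRNAs share the same libraries, and the measure says nothing of shared function.

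Markers of other cell types were set beside the members by library totals, on which 27.4% of all tested miRNAs were below Sham in every TAC library. The endothelial miR-126a arms, from an intron of Egfl7, summed to 49248, 65606, 72051 and 53295 CPM in Sham and to 33813, 33782, 34557 and 29274 CPM in TAC, and both arms were below Sham in every TAC library. miR-126a-3p is also 1 of the 2 reference miRNAs, and was lowest among the Sham libraries in Sham 1 (25759 CPM), the library with the most miR-99a-5p. The other arm, miR-126a-5p, was highest among the Sham libraries there, at 23488 CPM against 16874 to 22419 CPM in the others. Leukocyte miRNAs summed to 1815 ± 487 CPM in Sham and 1109 ± 173 in TAC, with 1 of 4 (miR-142a-5p) below Sham in every TAC library, near that share, and miR-150-5p the most abundant. Erythroid miRNAs, led by miR-144-3p, summed to 962 ± 444 and 330 ± 249 CPM with all 3 overlapping.

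The 5 cardiomyocyte miRNAs, led by miR-1a-3p, were all detected in every library and summed to 177299 ± 16433 CPM in Sham and 222021 ± 21213 in TAC, each with overlapping groups. The 7 fibroblast and smooth muscle miRNAs, led by miR-143-3p, summed to 49235 ± 3241 and 44207 ± 3453 CPM, all overlapping. Of the 8 epithelial miRNAs, led by miR-192-5p, 2 (miR-192-5p and miR-194-5p) were below Sham in every TAC library, again near the share over all tested miRNAs, while miR-141-3p, miR-429-3p, miR-200a-3p, miR-200c-3p and miR-200b-3p had higher means in TAC, carried by TAC 4. In that library miR-200a-3p stood at 505 CPM, against 106 to 196 CPM in the other 7. The sums of the list were 1916 ± 143 and 1747 ± 370 CPM, with TAC 4 highest at 2274. No marker in these lists was at 0 in any library. The log2 ratio of miR-125a-5p to miR-126a-3p had an SD of 0.27 over the 8 libraries (34th of 222), that of miR-99b-5p to miR-126a-3p 0.36 (101st of 222), and that of miR-99a-5p to miR-126a-3p 0.63 (187th of 222). To miR-19b-3p, the other reference miRNA and on none of these lists, the SDs kept that order, at 0.30 (57th), 0.39 (116th) and 0.65 (189th). From the fibroblast and smooth muscle list, miR-145a-5p (SD 0.15) and miR-199a-5p (0.18) were more alike to miR-125a-5p than miR-126a-3p was. The part of these other cells in the lower share of the chromosome 17 members was not tested.

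**Figure D4:**
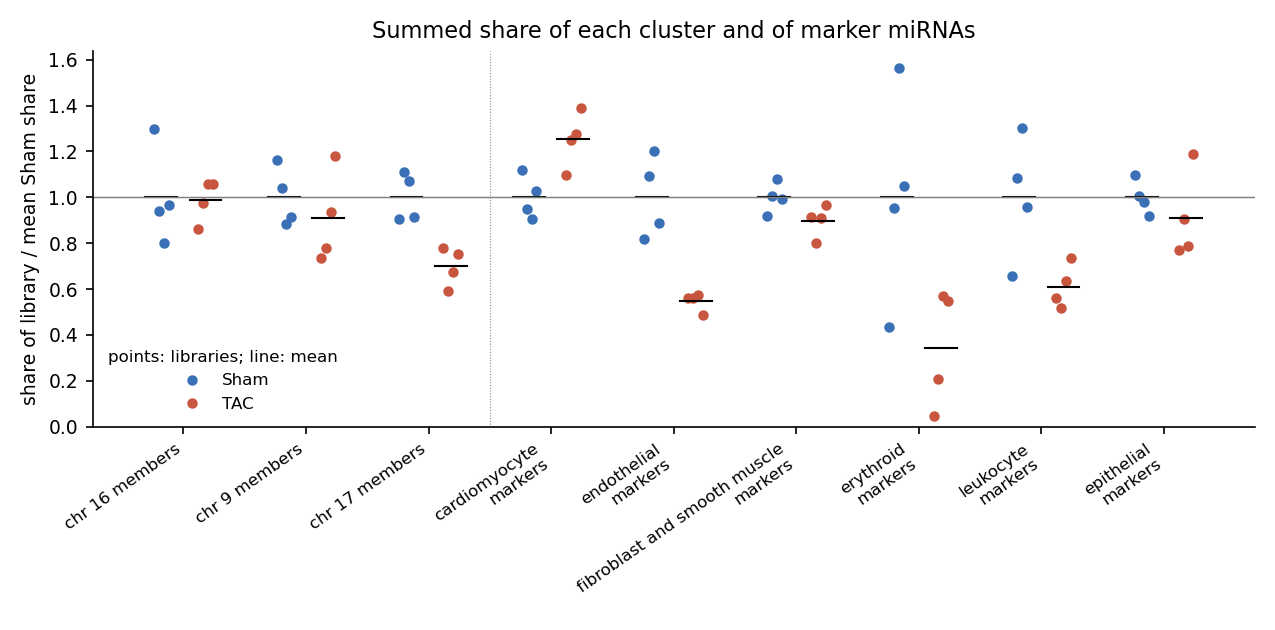
Summed share of the library of the members made only on chromosome 16, only on chromosome 9 and on chromosome 17, and of 6 lists of marker miRNAs, each divided by its mean Sham share; points are libraries and lines are group means. The chromosome 17 members and the endothelial markers are the sets whose TAC points all lie below their Sham points. In both sets this follows from the main miRNAs, which were each below Sham in every TAC library.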

How the data were processed

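Small RNA libraries of 4 Sham and 4 TAC mice were analysed, grouped by the sample labels. The deposited values are whole-number counts per mature miRNA, which the authors made from cleaned tags without normalization. The submitters' processing notes name mm10 and StringTie 1.3.1, and the handling of tags that match several miRNAs was not given in the sources used here. Among miRNAs with the same mature sequence, counts were exactly equal in 8 of 8 libraries for let-7a-1-3p and let-7c-2-3p. The same held for miR-465a-3p, miR-465b-3p and miR-465c-3p. For miR-199a-3p and miR-199b-3p they were exactly equal in 1 of 8 and nearly equal in the others, as at 1885.4 and 1884.7 CPM in Sham 1. How shared tags were counted is not settled.

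The members and lists were chosen with earlier results of these data known. All 10 members, the let-7 of the clusters, the reference miRNAs, the 3 miRNAs most alike to each of 4 members, and the markers were named. edgeR 4.0.16 in R 4.3.3 (glmQLFit, glmQLFTest, group as the only term, Benjamini-Hochberg over 223 miRNAs with a mean above 100 counts) was the test. Its biological coefficient of variation was 0.255. Library sizes were miRNA totals, multiplied in TAC by 0.537. Ratios, with 0.5 added to each count, were tested by exact two-sided permutation (70 arrangements of the libraries), with Benjamini-Hochberg adjustment over 16 ratios. Alternatives were TMM, library totals, either reference miRNA by itself, a reference factor for each library, DESeq2 1.42.0, other count minimums and fold thresholds, pseudocounts of 0 and 10, medians, each library left out, and replicate numbers as a block. Python 3.11.15, numpy 2.4.6, pandas 2.3.3, scipy 1.17.1 and matplotlib 3.10.9 were used. Hairpins were placed with GENCODE vM21 (GRCm38), and all member sequences were matched by name in RefSeq. Intervals and limits from counts cover counting error only.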

Additional observations from a re-analysis of the deposited data

Results flagged for a closer look

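Among 52 groups of 4 libraries examined, over the CPM of the 10 members and the 16 ratios, 2 had a library far from the other 3, and chance flags about 1 group in 20. The log2 ratio of miR-99a-5p to miR-99b-5p was far lower in TAC 1 than in the other TAC libraries, with a gap of 0.862 of the group's range. The log2 ratio of miR-125a-5p to let-7e-5p was far higher in TAC 4 than in the other TAC libraries, with a gap of 0.835 of the range.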

How the results depend on the processing

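The calls changed most with the scaling between libraries. The 3 members called higher became 0 with TMM, library totals and DESeq2's own size factors, 1 with a fold change above 2, 6 with no fold change required, and 1 to 4 without single libraries. The 6 members past the adjusted p became 1, 0 and 1 under the first 3 of these, and 4 to 7 without single libraries. They became 4 with a reference factor for each library, 4 with no filter, 5 with miR-126a-3p alone and 7 with miR-19b-3p alone. The 82 tested miRNAs called higher became 3, 1 and 5 under the same 3, 127 with no filter, 43 above a fold of 2, 142 with no fold required, and 59 to 106 without single libraries. With miR-126a-3p alone, 3 members and 63 tested miRNAs were called higher, and with miR-19b-3p alone 4 and 99.

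Log2 fold changes turned negative with library totals for miR-99a-5p (-0.018), miR-99b-5p (-0.57), miR-100-5p (-0.14), miR-125a-5p (-0.49), miR-125b-1-3p (-0.33) and miR-125b-2-3p (-0.0031). With TMM they did so for miR-99b-5p (-0.36), miR-125a-5p (-0.29) and miR-125b-1-3p (-0.12), and with DESeq2's own size factors for the same 3 (-0.32, -0.23 and -0.069). Differences of mean log2 CPM turned likewise with library totals for miR-99a-5p (-0.00078), miR-99a-3p (-0.18), miR-99b-5p (-0.57), miR-100-5p (-0.15), miR-125a-5p (-0.49), miR-125a-3p (-0.15) and miR-125b-1-3p (-0.33), and with TMM for miR-99b-5p (-0.36), miR-125a-5p (-0.28) and miR-125b-1-3p (-0.12). A common factor on all TAC libraries moves every member alike, so the order of the members was kept between reference scaling and library totals.

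The 7 ratios between clusters, several of which share a member, kept their direction in every alternative, and none passed an adjusted p of 0.05. Ratios near 0 changed sign. miR-99b-5p to miR-125a-5p was 0.074 by medians and -0.19 to 0.093 without single libraries, miR-99a-5p to miR-125b-2-3p -0.10 to 0.065, miR-100-5p to miR-125b-1-3p -0.030 to 0.28, and miR-99a-5p to miR-125b-5p -0.24 to 0.0097. Under TMM, miR-100-5p lay between -0.043 and 0.20 without single libraries. The cause of these changes was not tested.

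Sham and TAC libraries share replicate numbers, and the study speaks of pairs of sham and TAC mice, but neither says that a number marks a pair. Deviations of same-numbered libraries correlated at 0.17, -0.37, 0.31 and -0.22, which does not show a pairing, nor that there is none. With the number as a replicate block, 3 members were called and 5 passed the adjusted p, miR-125a-5p not passing (log2 0.41, edgeR adjusted p = 0.078). With TMM and the block, miR-125b-5p had log2 0.33 (adjusted p = 0.099). Sign flips over 4 pairs cannot give an exact p below 0.125. The 3p arms with 9 to 102 counts limit what can be seen of arm ratios.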
